A study of Mus musculus with 12 samples.

Results

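RNA levels of 9 genes for adhesion between axon and Schwann cell, of 43432 genes in the count table, were described in mouse sciatic nerve at postnatal day 30. The genes were *Nfasc*, *Nrcam*, *Gldn*, *Cadm1*, *Cadm2*, *Cadm3*, *Cadm4*, *Cldn19* and *Dlg1*, taken by name and not by a rule on measured values. Earlier results of these data were known when they were chosen. All 9 were tested. Each of the 12 libraries came from the nerve of 1 mouse aged 1 month. There were 4 per group (WT control, untreated *Mtmr2* KO, and *Mtmr2* KO given niacin), with 3 males and 1 female in each. WT control mice carried 2 wild-type *Mtmr2* alleles and received no treatment and *Mtmr2* KO mice (*Mtmr2* -/-, generated on a 129/SvPas background) were labelled as untreated. The study's text instead calls the *Mtmr2* KO group vehicle treated, so whether these mice received vehicle is unclear. Treated mice, also *Mtmr2* -/-, received niacin by intraperitoneal injection at 120 mg/kg from day 10 to day 21, then slow-release granules (Niacin-SR) by gavage until day 30. No WT control mice were given niacin in these libraries, so an effect of niacin without the knockout was not measured. Loss of *Mtmr2*, a phosphatase of phosphoinositide lipids, models the demyelinating neuropathy CMT4B1, in which myelin folds outwards.

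Myelinated axons are divided into the node of Ranvier, the paranodes beside it and the internode under compact myelin. At the node, gliomedin (*Gldn*), secreted by Schwann cell microvilli, binds axonal neurofascin (*Nfasc*) and NrCAM (*Nrcam*) and gathers sodium channels; at the paranode a glial isoform of neurofascin binds the axonal pair of contactin and Caspr. Along the internode, *Cadm4* on the Schwann cell binds *Cadm3* and *Cadm1* on the axon. Claudin-19 (*Cldn19*) seals the Schwann cell's junctions with itself, and *Dlg1* is a membrane scaffold and a known partner of *Mtmr2* that restrains myelin growth. A nerve holds Schwann cells, axons without their cell bodies, fibroblasts, vessels and fat, so in bulk nerve RNA fewer cells of a type and less RNA per cell cannot be told apart, and the glial and axonal isoforms of *Nfasc* were counted together.

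All genes were located in GRCm38 by the GENCODE M21 annotation. *Nfasc* (ENSMUSG00000026442) lies on chromosome 1 at 132564690 to 132741797 and *Cadm3* (ENSMUSG00000005338) on the same chromosome at 173333258 to 173367695, both on the minus strand. On the plus strand, *Nrcam* (ENSMUSG00000020598) lies on chromosome 12 at 44328885 to 44601964 and *Gldn* (ENSMUSG00000046167) on chromosome 9 at 54286486 to 54341786. *Cadm1* (ENSMUSG00000032076) lies on chromosome 9 at 47530173 to 47857637, plus strand, and *Cadm2* (ENSMUSG00000064115) on chromosome 16 at 66655421 to 67620908, minus strand. Also on the plus strand, *Cadm4* (ENSMUSG00000054793) lies on chromosome 7 at 24482023 to 24504539, *Cldn19* (ENSMUSG00000066058) on chromosome 4 at 119255414 to 119262438 and *Dlg1* (ENSMUSG00000022770) on chromosome 16 at 31663443 to 31875129. Exons of 3 members overlapped another gene: *Cadm3* shared 361 bases with *Ackr1* on its own strand, *Cadm2* shared 256 bases with *1700010K23Rik* on the opposite strand, and *Cldn19* shared 90 bases with *Gm12927* on the opposite strand. No source states whether strand was used in counting, so reads in these stretches may belong to either gene.

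Upstream sequences are shown for *Gldn*, *Cadm3*, *Cadm4* and *Cldn19*, the 4 members whose levels followed each other most closely over the libraries. They are RefSeq promoter windows (GRCm38.p6) of up to 250 bases before the gene's start, written 5′ to 3′ on the gene's strand with exonic bases left out. Capitals mark matches, on either strand, to short letters bound by factor families active in Schwann cells: ACAAAG (SOX), GTGGGCG (EGR) and GGAATG (TEAD).
*Gldn*, chr9:54286236-54286485, plus strand: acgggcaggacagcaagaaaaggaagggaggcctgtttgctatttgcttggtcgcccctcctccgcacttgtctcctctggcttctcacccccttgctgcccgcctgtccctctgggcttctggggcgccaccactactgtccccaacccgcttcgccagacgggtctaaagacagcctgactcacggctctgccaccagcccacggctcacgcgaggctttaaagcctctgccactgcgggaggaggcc
*Cadm3*, chr1:173367696-173367945, minus strand: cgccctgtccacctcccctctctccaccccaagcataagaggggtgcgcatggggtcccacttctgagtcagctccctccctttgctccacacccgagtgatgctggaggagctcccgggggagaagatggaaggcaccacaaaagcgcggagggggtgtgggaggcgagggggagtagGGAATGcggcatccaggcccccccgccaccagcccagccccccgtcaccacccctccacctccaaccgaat
*Cadm4*, chr7:24481773-24482022, plus strand: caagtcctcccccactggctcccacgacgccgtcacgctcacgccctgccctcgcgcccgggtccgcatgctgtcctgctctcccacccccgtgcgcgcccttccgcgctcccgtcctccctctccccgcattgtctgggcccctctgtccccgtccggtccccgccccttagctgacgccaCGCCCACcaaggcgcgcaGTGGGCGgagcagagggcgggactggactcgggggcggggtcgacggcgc
*Cldn19*, chr4:119255191-119255413, plus strand: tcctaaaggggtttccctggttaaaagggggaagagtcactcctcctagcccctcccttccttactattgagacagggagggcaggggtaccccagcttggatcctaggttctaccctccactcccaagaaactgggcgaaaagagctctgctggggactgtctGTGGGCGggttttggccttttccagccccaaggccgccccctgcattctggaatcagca
The EGR letters occurred 2 times in the *Cadm4* window and 1 time in the *Cldn19* window, against 7.02% of all 32851 promoter windows holding at least 1 match. The TEAD letters occurred 1 time in the *Cadm3* window, against 12.6% of windows. The SOX letters, held by 16.5% of windows, were in none of the 4 windows, and the *Gldn* window held none of the 3 motifs. The *Gldn* and *Cadm3* windows, whose genes had the closest levels of any pair, shared no motif. A match is a description of letters only. Of the 9 members, 8 had a window in the table, all but *Cadm1*. Outside the 4 shown, a *Dlg1* window held the EGR letters and another *Dlg1* window the SOX letters. The shares over all windows do not allow for the GC content of a window, which was 75.2% for *Cadm4* and 57.4% for *Cldn19*.

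Library totals ranged from 20763951 to 33191106 counts, and the raw counts of the members from 619 for *Cadm2* to 65046 for *Cadm4*. Totals were 26653828 to 28390961 in WT control and 20983641 to 22935378 in niacin-treated *Mtmr2* KO. Every niacin-treated total thus lay below every WT control total, whereas untreated *Mtmr2* KO spanned the whole range. The effect of this difference in depth on the comparisons was not tested. *Mtmr2* itself measured 128 to 161 CPM (counts relative to library size, scaled by TMM) in WT control and 66.8 to 73.5 CPM in niacin-treated *Mtmr2* KO libraries. In *Mtmr2* KO it measured 71.6, 84.7, 143 and 69.5 CPM, so that the library labelled *Mtmr2* KO 4503 lay within the WT control range. Library 4502 of *Mtmr2* KO also stood apart: 8 axon and neuron genes summed to 313 CPM there, against 81.2 to 143 CPM in the other 11 libraries. Skeletal muscle genes summed to 3052 and 2992 CPM in niacin-treated libraries 4506 and 4507, against at most 89.4 CPM elsewhere. The 3429 tested genes richest in G and C (from 55.3% GC of the longest transcript) sat above the 3429 genes poorest in GC (up to 43.9%) in all 4 WT control libraries, by 0.17 to 0.32 in median log2 deviation from each gene's mean. The same difference was -0.34, -0.10, -0.26 and -0.39 in the 4 niacin-treated libraries, and -0.64 in 4502 against 0.15 to 0.27 in the other *Mtmr2* KO libraries. The difference was thus negative in all niacin-treated libraries and, most strongly, in the untreated library 4502. Whether it came from treatment or from handling of the libraries was not tested. Values corrected for GC content are given beside some of the results.

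In WT control nerve the 9 genes spanned a wide range of level per length (mean CPM per kilobase of exons ± SD, n = 4). *Cadm4* was the most abundant, at 841 ± 91.4, followed by *Cldn19*, at 176.9 to 217.6 (mean 194.6), and *Cadm3*, at 74.3 ± 5.06. *Gldn* measured 58.1 ± 5.44, and *Nfasc* 31.8 ± 4.31. The lower levels were those of *Dlg1* (9.82 ± 0.781), *Nrcam* (5.80 ± 0.853), *Cadm1* (3.89 ± 0.178) and *Cadm2* (3.06 ± 0.327). No 2 neighbours in this order overlapped over the 4 libraries, and the order was the same with the length of the longest transcript. *Cadm4*, the Schwann cell receptor of the internode, thus exceeded its binding partner *Cadm1* in every library. *Cadm3*, described as axonal in that pair, held rank 3 of 9 in nerve RNA, while 8 axon and neuron markers summed to 81.2 to 106 CPM in the same libraries; the cells that made *Cadm3* RNA were not determined here.

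**Figure D1:**
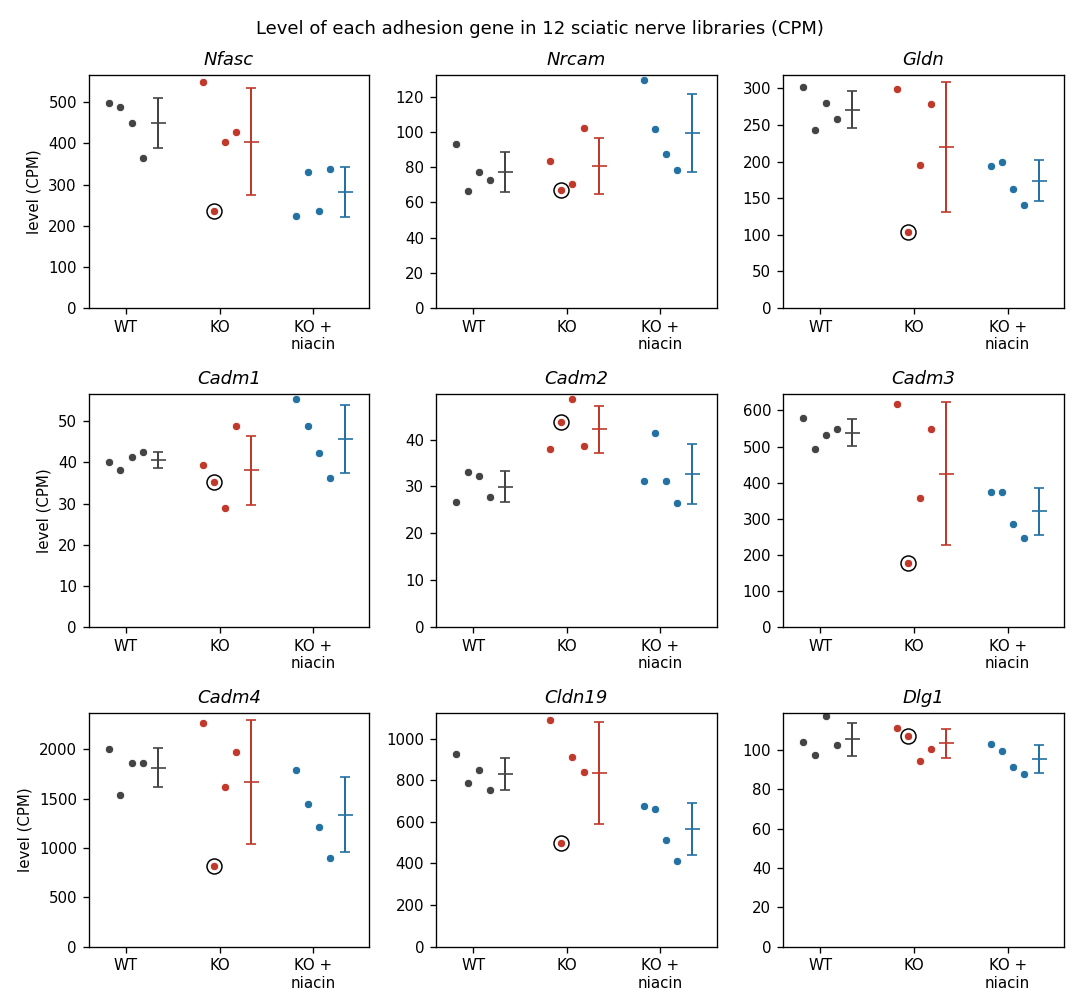
Levels (CPM, TMM-scaled, vertical axis from 0) of the 9 adhesion genes in the 12 libraries, 1 point per mouse, with the mean and SD of each group of 4 beside the points; the circled point is *Mtmr2* KO library 4502. *Nfasc*, *Gldn*, *Cadm3* and *Cldn19* lie lower in all 4 niacin-treated libraries than in any WT control library, *Cadm2* lies higher in all 4 *Mtmr2* KO libraries than in any WT control library, and 4502 is the lowest *Mtmr2* KO library for *Nfasc*, *Gldn*, *Cadm3*, *Cadm4* and *Cldn19*.

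No member was called in any of the 3 comparisons by edgeR's quasi-likelihood test on all 12 libraries (adjusted p under 0.05 over 17257 genes). Among all genes tested, 0.267% were called between *Mtmr2* KO and WT control, 1.43% between niacin-treated and untreated *Mtmr2* KO, and 0.0% between niacin-treated *Mtmr2* KO and WT control, where 1742 genes were higher and 2512 lower at an unadjusted p under 0.05 and DESeq2 called 273 higher and 973 lower. At an unadjusted p under 0.05, *Cadm2* was higher in *Mtmr2* KO than in WT control, as were 9.35% of genes. At the same limit *Nfasc*, *Cadm2* and *Cldn19* were lower in niacin-treated than in untreated *Mtmr2* KO, as were 12.1% of genes, and *Nfasc*, *Gldn*, *Cadm3* and *Cldn19* were lower in niacin-treated *Mtmr2* KO than in WT control, as were 14.6% of genes. The comparisons share groups, so their results are not independent of each other.

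*Gldn*, the nodal ligand made by Schwann cells, measured 302, 243, 280 and 259 CPM in WT control, 299, 104, 196 and 278 CPM in *Mtmr2* KO and 194, 199, 163 and 140.5 CPM in niacin-treated *Mtmr2* KO. All 4 niacin-treated libraries lay below the lowest WT control library, whereas untreated *Mtmr2* KO libraries spread from within the WT control range to the lowest value of all. The log2 fold change of niacin-treated *Mtmr2* KO against WT control was -0.64 (SE 0.26, edgeR adjusted p = 0.166), and the exact permutation p of the 2 groups was 0.0286, the smallest that 4 against 4 libraries allow. Against untreated *Mtmr2* KO it was -0.33 (SE 0.26, edgeR adjusted p = 0.488). Between *Mtmr2* KO and WT control it was -0.30 (SE 0.26, edgeR adjusted p = 0.561), a difference within the spread between libraries.

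*Nfasc*, the receptor of gliomedin at the node and the glial adhesion molecule of the paranode, measured 498, 488, 451 and 364 CPM in WT control and 550, 235, 405 and 427 CPM in *Mtmr2* KO. In niacin-treated *Mtmr2* KO it measured 225, 329.7, 236 and 337 CPM, again below every WT control library. The log2 fold change of niacin-treated *Mtmr2* KO was -0.67 (SE 0.23) against WT control, with an edgeR adjusted p of 0.127, and -0.52 (SE 0.23) against untreated *Mtmr2* KO, with an edgeR adjusted p of 0.231. *Mtmr2* KO against WT control gave -0.15 (SE 0.23, edgeR adjusted p = 0.759). Library 4502 alone among the *Mtmr2* KO libraries fell among the niacin-treated values.

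*Nrcam*, the other axonal partner of gliomedin, did not share this pattern. It measured 93.1, 66.4, 77.5 and 72.7 CPM in WT control, 83.6, 67.0, 70.7 and 102 CPM in *Mtmr2* KO, and 129, 102, 87.7 and 78.3 CPM in niacin-treated *Mtmr2* KO. The groups overlapped in all 3 comparisons, with 2 of 4 niacin-treated libraries above the highest WT control library (log2 fold change 0.36, SE 0.18, edgeR adjusted p = 0.226; 0.26 corrected for GC content). The level of *Nrcam* relative to *Nfasc* was 0.136 to 0.1999 in WT control and 0.232 to 0.575 in niacin-treated libraries. In untreated *Mtmr2* KO it was 0.152, 0.285, 0.175 and 0.239, which overlapped both. This ratio is not corrected for GC content, which was 46.1% for *Nrcam* and 54.1% for *Nfasc*.

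*Cadm3* measured 580, 492, 533 and 548 CPM in WT control, 618, 178, 357 and 547 CPM in *Mtmr2* KO, and 374, 375, 286 and 247 CPM in niacin-treated *Mtmr2* KO. The niacin-treated libraries lay apart from WT control and the untreated *Mtmr2* KO libraries held both the highest and the lowest value. The log2 fold change against WT control was -0.75 (SE 0.29, edgeR adjusted p = 0.160) and the exact permutation p was 0.0286. It was -0.41 (SE 0.29) against untreated *Mtmr2* KO, with an edgeR adjusted p of 0.458, and -0.34 (SE 0.29) for *Mtmr2* KO against WT control, with an edgeR adjusted p of 0.571.

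*Cadm4*, its partner on the Schwann cell, measured 2009, 1540, 1858 and 1859 CPM in WT control, 2266, 820.5, 1618 and 1974 CPM in *Mtmr2* KO, and 1792, 1450, 1215 and 898 CPM in niacin-treated *Mtmr2* KO. Of the niacin-treated libraries, 3 of 4 lay below the lowest WT control library. The log2 fold change against WT control was -0.44 (SE 0.28, edgeR adjusted p = 0.328, exact permutation p = 0.0571). Of all members *Cadm4* had the highest GC content, 60.02%, with 95.95% of tested genes lower, and with levels corrected for GC content its log2 fold change became -0.13 (edgeR adjusted p = 0.803).

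*Cadm1*, the other axonal partner of *Cadm4*, measured 38.2 to 42.5 CPM in WT control, the narrowest spread of any member there (SD 1.86, n = 4). It measured 39.4, 35.2, 29.0 and 49.0 CPM in *Mtmr2* KO and 55.3, 48.8, 42.4 and 36.3 CPM in niacin-treated *Mtmr2* KO. The groups overlapped in each comparison, and log2 fold changes were -0.09 (SE 0.16), 0.26 (SE 0.16) and 0.17 (SE 0.16) in the order *Mtmr2* KO against WT control, niacin-treated against untreated *Mtmr2* KO, and niacin-treated *Mtmr2* KO against WT control. Corrected for GC content they were -0.14, 0.16 and 0.03.

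*Cadm2*, the least abundant member per length in WT control, was the only one of 9 whose *Mtmr2* KO and WT control libraries did not overlap. Of all genes, 3.85% were higher without overlap. It measured 26.7, 33.2, 32.3 and 27.8 CPM in WT control, 38.0, 43.7, 48.6 and 38.5 CPM in *Mtmr2* KO, and 31.3, 41.5, 31.3 and 26.6 CPM in niacin-treated *Mtmr2* KO. The *Mtmr2* KO libraries were all above the WT control libraries, and 3 of 4 niacin-treated libraries were below the lowest *Mtmr2* KO library. The log2 fold change of *Mtmr2* KO against WT control was 0.49 (SE 0.15, edgeR adjusted p = 0.128), and under 24 other settings its adjusted p ranged from 0.0517 to 0.453. Niacin-treated against untreated *Mtmr2* KO gave -0.37 (SE 0.15, edgeR adjusted p = 0.184), and -0.50 corrected for GC content (edgeR adjusted p = 0.199). The highest value was in the library labelled *Mtmr2* KO 4503, without which the first log2 fold change was 0.42 (edgeR adjusted p = 0.187). *Cadm2* had the lowest GC content of the members, 36.9%, with 1.36% of tested genes lower, and corrected for GC content the *Mtmr2* KO and WT control libraries overlapped (log2 fold change 0.35, edgeR adjusted p = 0.383).

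*Cldn19* measured 928, 786, 851 and 754 CPM in WT control, 1088, 499.9, 914 and 837 CPM in *Mtmr2* KO, and 676, 659.8, 513 and 411 CPM in niacin-treated *Mtmr2* KO. Every niacin-treated library lay below every WT control library, and below 3 of the 4 untreated *Mtmr2* KO libraries. The log2 fold change of niacin-treated *Mtmr2* KO was -0.55 (SE 0.23, edgeR adjusted p = 0.169) against WT control and -0.56 (SE 0.23, edgeR adjusted p = 0.190) against untreated *Mtmr2* KO. *Mtmr2* KO against WT control gave 0.0087 (SE 0.23), a difference far inside the error.

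*Dlg1*, the scaffold partner of *Mtmr2*, had the smallest standard error of the members. Its libraries spanned 97.7 to 117 CPM in WT control, 94.6 to 111 CPM in *Mtmr2* KO and 88.1 to 103 CPM in niacin-treated *Mtmr2* KO. The log2 fold changes were -0.03 (SE 0.11), -0.11 (SE 0.11) and -0.14 (SE 0.11) in the order given for *Cadm1*, with edgeR adjusted p of 0.919, 0.586 and 0.420. These differences were within the spread between libraries. With levels corrected for GC content all 4 niacin-treated libraries were below every WT control library (log2 fold change -0.29, edgeR adjusted p = 0.220), as were 12.4% of all genes.

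**Figure D2:**
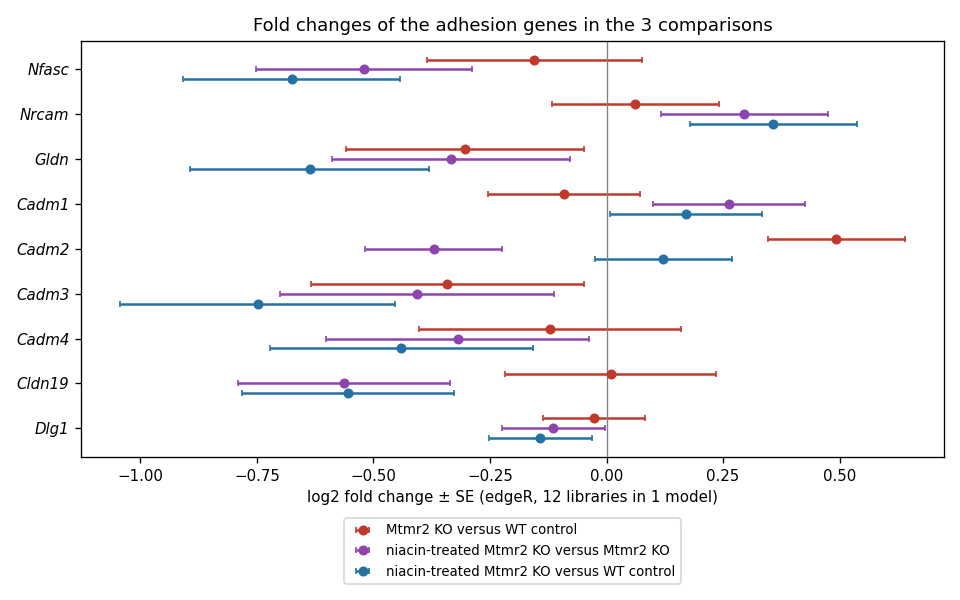
Log2 fold changes (horizontal axis) of the 9 genes in the 3 comparisons, with bars of 1 SE from the edgeR fit on 12 libraries. For niacin-treated *Mtmr2* KO against WT control, *Cadm3*, *Nfasc*, *Gldn* and *Cldn19* lie at -0.75 to -0.55, and for *Mtmr2* KO against WT control *Cadm2* is the highest, at 0.49.

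Between niacin-treated *Mtmr2* KO and WT control, 4 of 9 members (*Nfasc*, *Gldn*, *Cadm3* and *Cldn19*) were lower with no overlap of libraries, against 16.6% of all 17257 genes. Between niacin-treated and untreated *Mtmr2* KO no member was free of overlap, against 3.6% of genes higher and 3.4% lower. Whether the 4 were called depended on the fit. On only the 8 libraries of niacin-treated *Mtmr2* KO and WT control, edgeR called all 4 lower (adjusted p of 0.00412 for *Gldn*, 0.00375 for *Cadm3*, 0.00966 for *Nfasc* and 0.0177 for *Cldn19*), and in this fit 17.6% of all genes were called lower. DESeq2 on the same 8 libraries called these and *Cadm4*, with 18.9% of all genes called lower, and on all 12 libraries it called *Nfasc* alone (adjusted p = 0.0492), with 7.0% called lower. Limma-voom with sample quality weights called the 4 and *Cadm4*, with 21.5% of genes called lower, and edgeR on 11 libraries without 4502 called the 4, with 12.7% called lower. Between niacin-treated and untreated *Mtmr2* KO, edgeR without 4502 called the same 4 lower (log2 fold changes of -0.76 to -0.58), as it did 13.7% of genes, and limma-voom with weights also called these 4, as it did 6.95% of genes. Leaving out any other single library gave no call among the members in either comparison. Without 4502, the *Mtmr2* KO library low in these genes and high in axonal RNA, *Nfasc* and *Cldn19* no longer overlapped between niacin-treated and untreated *Mtmr2* KO. Of all genes, 14.2% were likewise lower without overlap.

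Corrected for GC content, edgeR on 12 libraries gave log2 fold changes of niacin-treated *Mtmr2* KO against WT control of -0.73 for *Gldn*, -0.65 for *Cadm3*, -0.56 for *Nfasc* and -0.44 for *Cldn19*, with adjusted p of 0.192 to 0.268. *Gldn* and *Cadm3* still did not overlap between the groups, and neither did *Dlg1*, against 12.4% of all genes lower without overlap. *Nfasc* and *Cldn19* overlapped. *Gldn*, at 46.2% GC, had a content below the median of tested genes (49.6%), whereas *Cadm3* (53.5%), *Nfasc* (54.1%) and *Cldn19* (53.8%) were above it. What gave the niacin-treated libraries their base composition was not tested.

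Levels were also read relative to 12 myelin genes of the same library. The log2 level of each member minus the mean log2 level of these genes set it against genes that are mostly of the myelinating Schwann cell. The same number was subtracted from every member of a library, so distances between members were unchanged. *Gldn* measured -3.27 to -3.17 in WT control and -3.67 to -3.53 in niacin-treated *Mtmr2* KO on this scale. *Cadm3* measured -2.32 to -2.10 in WT control and -2.72 to -2.71 in niacin-treated *Mtmr2* KO, and *Cldn19* -1.65 to -1.53 and -1.98 to -1.87. These 3 of 9 members were lower without overlap, against 3.83% of all genes on the same scale. In the other direction, *Nrcam* measured -5.09 to -4.96 in WT control and -4.60 to -4.25 in niacin-treated libraries, and *Cadm1* -6.17 to -5.79 and -5.66 to -5.48. These 2 of 9 were higher without overlap, against 16.0% of all genes. Before the subtraction their mean log2 levels differed by 0.34 and 0.15, and the groups overlapped. On the relative scale the exact permutation p of each of the 5 was 0.0286, and their groups stayed apart without *Egr2* and *Mag* in the denominator and with levels corrected for GC content.

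*Nrcam* and *Cadm1* were also higher relative to the myelin genes in niacin-treated than in untreated *Mtmr2* KO, by 0.79 and 0.77 on the log2 scale without overlap (exact permutation p = 0.0286), against 14.2% of all genes. Before the subtraction these differences were 0.29 and 0.27, and the groups overlapped. For *Mtmr2* KO against WT control, *Gldn* was lower relative to the myelin genes by 0.64 without overlap (exact permutation p = 0.0286), against 14.6% of all genes; its values were -3.30, -4.45, -4.28 and -3.38 in *Mtmr2* KO, so 2 libraries stood far below the others. These 2 were 4502 and 4503, and *Cadm3* and *Cadm4* were also lowest in them. The myelin genes themselves were not still: their summed level was 96930 to 122900 CPM in WT control, 97490 to 132900 CPM in *Mtmr2* KO and 68440 to 110800 CPM in niacin-treated libraries.

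**Figure D3:**
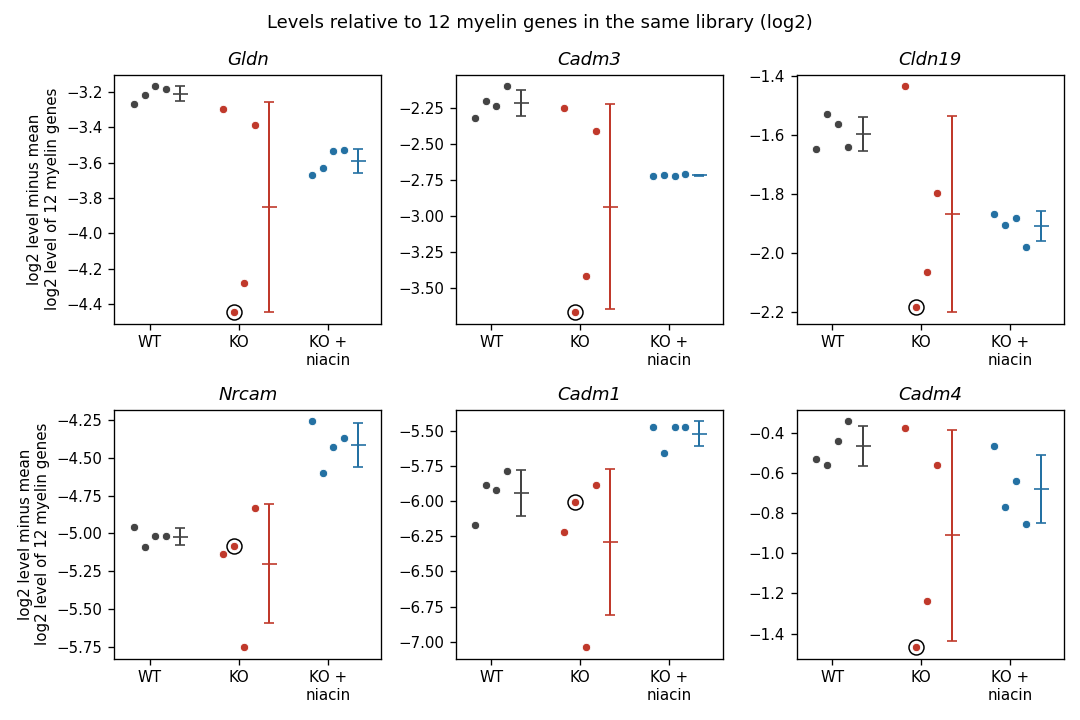
Log2 level of 6 members minus the mean log2 level of 12 myelin genes in the same library (vertical axis, scaled per panel), 1 point per mouse with the mean and SD of each group of 4; the circled point is *Mtmr2* KO library 4502. *Gldn*, *Cadm3* and *Cldn19* lie lower, and *Nrcam* and *Cadm1* higher, in every niacin-treated library than in any WT control library, while *Cadm4* overlaps.

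How the members' levels moved together over the 12 libraries is given as a description. *Gldn* and *Cadm3* had the highest Pearson r (of log2 CPM) of the 36 pairs, 0.995 (Spearman rho 0.958), 0.987 without libraries 4502 and 4508, which were farthest from the median of *Gldn*, and 0.986 with levels corrected for GC content. The level of *Gldn* was 0.472 to 0.584 times that of *Cadm3* in every library, although both ranged widely, from 104 to 302 CPM and from 178 to 618 CPM. *Cadm3* and *Cadm4* followed with r = 0.944 (rho 0.937), *Gldn* and *Cadm4* with 0.943 (rho 0.909) and *Cadm4* and *Cldn19* with 0.906 (rho 0.860). *Nrcam* and *Cadm1* were alike (r = 0.826, rho 0.776, 0.658 without libraries 4504 and 4505) and both were unlike *Nfasc* (r = -0.27 and -0.26). With levels corrected for GC content, *Nrcam* and *Cadm1* stayed at 0.843, but their r with *Nfasc* became -0.015 and 0.13, and their r with *Cadm4* went from 0.351 to 0.77 and from 0.34 to 0.809. *Cldn19* and *Dlg1* went from 0.552 to 0.916 in the same way. The points share library depth, cell makeup and base composition, and groups were pooled.

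**Figure D4:**
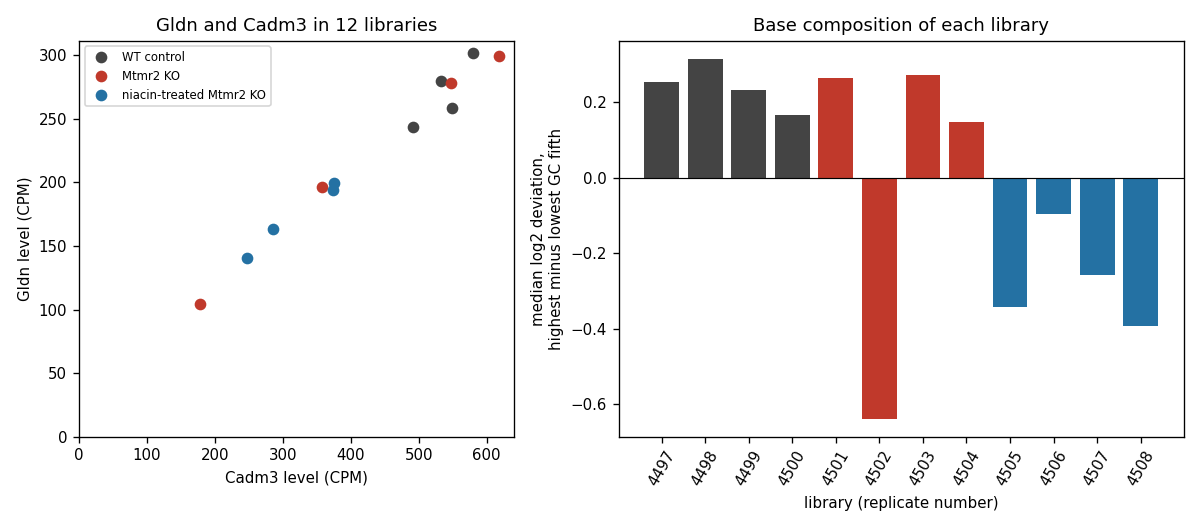
Left, levels of *Gldn* against *Cadm3* (CPM, both axes from 0) in the 12 libraries, 1 point per mouse; right, the median log2 deviation of the genes highest in GC minus that of the genes lowest in GC, 1 bar per library. The 12 points lie near 1 line (r = 0.995 of log2 CPM) with the niacin-treated libraries between 140.5 and 199 CPM of *Gldn*, and the bars are above 0 in all WT control libraries and below 0 in all niacin-treated libraries and in 4502.

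Among all tested genes, the 3 with the highest r over the 12 libraries were *Cadm3* (0.995), *Tada3* (0.988) and *Thop1* (0.985) for *Gldn*, and *Gldn*, *Thop1* and *Tada3* (0.984 to 0.995) for *Cadm3*. For *Cadm4* they were *Fads1*, *Ucp2* and *Papss1* (0.984 to 0.988), for *Cldn19* *Frmd8*, *Sh3bp5* and *Lrrn2* (0.987 to 0.993), and for *Nfasc* *Hps4*, *Abca7* and *Mib2* (0.968 to 0.973). For *Nrcam* they were *Knop1*, *Golga3* and *Copa* (0.912 to 0.929), for *Cadm1* *Dhx29*, *Slc25a13* and *Nek3* (0.942 to 0.952), for *Cadm2* *Mxi1*, *Ndrg2* and *Angptl7* (0.922 to 0.952), and for *Dlg1* *Trim36*, *Smim13* and *Grk5* (0.886 to 0.914). Among these *Gldn* and *Cadm3* were the only members to be near each other.

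Genes of the axon-glia junctions were read from lists that also held the members. The calls and medians of these lists thus include the members' values. Of 15 node genes tested, none was called in any comparison, and the median log2 fold change of niacin-treated *Mtmr2* KO against WT control was -0.25, beside 0.02 over all genes. The 2 most abundant per length were *Dag1*, the laminin receptor of the Schwann cell membrane and its microvilli (996 to 1494 CPM in WT control, 330 to 747 CPM in niacin-treated libraries, log2 fold change -1.14, edgeR adjusted p = 0.0995), and the heparan sulphate proteoglycan *Sdc3* (302 to 391 CPM and 133 to 251 CPM, -0.88, edgeR adjusted p = 0.110). Both were lower in every niacin-treated library than in any WT control library. Of 7 paranode genes none was called, and the medians lay near 0 (-0.15, 0.05 and -0.05 in the 3 comparisons); the cytoskeletal spectrins *Sptbn1* and *Sptan1* were the most abundant, with log2 fold changes against WT control of -0.09 and 0.12 under niacin.

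Of 8 juxtaparanode genes, 1 was called, *Lgi4*, a protein secreted by Schwann cells that is needed for their myelination. It measured 128, 111, 158 and 121 CPM in *Mtmr2* KO and 83.6, 95.1, 70.4 and 66.4 CPM in niacin-treated *Mtmr2* KO without overlap (log2 fold change -0.72, SE 0.16, edgeR adjusted p = 0.0457). WT control, at 85.65 to 119.9 CPM, overlapped both. *Kcna1*, a potassium channel subunit found under the myelin beside the paranode, measured 344 to 446 CPM in WT control, 203 to 269 CPM in niacin-treated libraries and 1105 CPM in the library labelled *Mtmr2* KO 4503 (log2 fold change of niacin-treated against untreated *Mtmr2* KO -1.26, edgeR adjusted p = 0.0802). Of 10 internode adhesion genes none was called and the medians were -0.05, -0.02 and -0.00046; *Epb41l2*, the cytoskeletal adaptor of *Cadm4*, measured 1147 to 1457 CPM in WT control and 973 to 1611 CPM under niacin, overlapping throughout.

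Of 15 genes of the Schwann cell's junctions with itself none was called, and the medians were 0.05 for *Mtmr2* KO against WT control, -0.41 for niacin-treated against untreated *Mtmr2* KO, where the median of all genes was -0.04, and -0.46 for niacin-treated *Mtmr2* KO against WT control. At an unadjusted p under 0.05, 9 of 15 were lower in each of the latter comparisons, against 12.1% and 14.6% of all genes. Both sets of 9 included the member *Cldn19*, and the values are not corrected for GC content. The list shares a gene with the perineurial markers, and the cells that made these RNAs were not determined. Besides *Cldn19*, the most abundant per length was *Ctnnb1*, the catenin of adherens junctions (681 to 782 CPM in WT control, 747 to 993 CPM under niacin, log2 fold change 0.20, edgeR adjusted p = 0.437). Of 12 genes of the *Dlg1* scaffold and the partners of *Mtmr2*, with *Mtmr2* itself, none was called (medians 0.03, -0.12 and -0.12). Against WT control, the log2 fold change of *Mtmr2* was -0.59 (SE 0.20, edgeR adjusted p = 0.166) in *Mtmr2* KO. In niacin-treated *Mtmr2* KO it was -1.01 (SE 0.20, edgeR adjusted p = 0.083), so the test did not call the knocked-out gene either. *Ddit4*, a stabiliser of *Dlg1* and inhibitor of mTOR, measured 86.2 to 152 CPM except for 79.4 CPM in 4502 and 878 CPM in the library labelled *Mtmr2* KO 4503. Of the 12 myelin genes none was called, with medians of 0.20, -0.56 and -0.05. *Pmp22*, a membrane protein of compact myelin, measured 22580 to 27960 CPM in WT control, 30150 to 34860 CPM in *Mtmr2* KO and 24130 to 33780 CPM in niacin-treated libraries.

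Markers of other cells were read beside these values. Summed levels in WT control, *Mtmr2* KO and niacin-treated libraries were 81.2 to 106, 106 to 313 and 117 to 143 CPM for 8 axon and neuron markers, 429 to 463, 200.1 to 473 and 221 to 346 CPM for 6 endothelial markers, and 2828 to 3700, 795.5 to 4791 and 2225 to 4586 CPM for 8 adipocyte markers. They were 664 to 754, 743 to 1042 and 736 to 1032 CPM for 6 markers of non-myelinating Schwann cells and 416 to 466, 382 to 712 and 471 to 729 CPM for 6 macrophage markers. Perineurial markers (6) summed to 852 to 1156, 877 to 1211 and 710 to 916 CPM, those of fibroblasts (6) to 11500 to 17450, 7960 to 12400 and 10960 to 18850 CPM, and those of vascular smooth muscle (6) to 745 to 1455, 657 to 1637 and 728 to 1312 CPM. Of these lists only those of adipocytes and skeletal muscle held called genes: *Plin1* and *Lep* were lower in *Mtmr2* KO than in WT control, *Lep* was higher in niacin-treated than in untreated *Mtmr2* KO, and *Acta1*, *Ckm*, *Tnnt3* and *Mylpf* were higher in niacin-treated than in untreated *Mtmr2* KO, where 4506 and 4507 held the high muscle sums. The most abundant markers per length were *Uchl1* and *Prph* (axon), *Cdh5* and *Pecam1* (endothelium), *Cfd* and *Fabp4* (fat), *Scn7a* and *Emp1* (non-myelinating Schwann cells), *C1qa* and *Csf1r* (macrophages), *Itgb4* and *Slc2a1* (perineurium), *Col3a1* and *Col1a1* (fibroblasts), *Tagln* and *Acta2* (smooth muscle) and *Tnnt3* and *Actn3* (skeletal muscle). No marker was at 0 in all 12 libraries. Without 4506 and 4507, the log2 fold changes of niacin-treated *Mtmr2* KO against WT control were -0.72 for *Gldn*, -0.81 for *Cadm3*, -0.71 for *Nfasc* and -0.63 for *Cldn19*. The part of cell makeup in the levels of the members was not tested.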

How the data were processed

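RNA of 12 sciatic nerves was sequenced after polyA selection (paired reads of 150 bases). The submitters' processing notes name CASAVA 1.9, STAR and DESeq2. The authors mapped reads to GRCm38 and deposited raw counts per Ensembl gene; no source used here gives the counting program, annotation release or strand setting. Their DESeq2 tables (fold changes, errors and p-values) served only to name 42615 genes.

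The test was edgeR 4.0.16 in R 4.3.3: filterByExpr with 3 groups, TMM scaling and 1 quasi-likelihood model over 12 libraries, two-sided, Benjamini-Hochberg over 17257 genes, called under 0.05. SE is the log2 fold change divided by the square root of F. CPM used TMM factors, log2 levels a prior count of 2. Exact permutation tests, two-sided with raw p, used all 70 ways to draw 4 of 8 libraries. Alternatives used DESeq2 1.42.0, limma 3.58.1 voom weights, DESeq2 size factors, other filters, *Xist* as a covariate, 2 groups only and each library left out. Corrections for GC content and transcript length (natural splines, 5 degrees of freedom, offsets, 99.3% of genes), DESeq2 on 2 groups and leaving out pairs of libraries were chosen after seeing the data. The script was tested on simulated data. Members and lists were chosen with earlier results of these data known.

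Named were all members, list genes called (at most 6 per list and comparison), the 2 most abundant genes per length of each list, *Mtmr2* and, for each member, the 3 genes with the highest Pearson r of log2 CPM. Library totals of 20763951 to 33191106 counts limit precision less than the spread between the 4 mice of a group. *Crb3* and *Tnnc2* were not tested for low counts, and some list genes are not reported here.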

Additional observations from a re-analysis of the deposited data

How the results depend on the processing

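With the 24 alternative settings, the number of members called between *Mtmr2* KO and WT control was 0 throughout. Between niacin-treated and untreated *Mtmr2* KO it was 4 with limma-voom weights and 0 to 4 with single libraries left out. It was also 4 without replicates 4502 and 4503, where 1408 of 17773 tested genes were called lower. Between niacin-treated *Mtmr2* KO and WT control it was 1 with DESeq2 on 12 libraries, 5 with DESeq2 on 2 groups, 5 with limma-voom weights and 4 with edgeR on 2 groups. It was 4 without replicates 4502 and 4503, where 2811 of 17773 tested genes were called lower. With single libraries left out it was 0 to 4, the 4 being without 4502. The fit without KO libraries, and that without 4502, have fewer libraries in the shared estimate of the spread. All-gene calls moved more: lower calls between niacin-treated *Mtmr2* KO and WT control went from 0 to 2904 with edgeR on 2 groups and 2250 without 4502, and higher calls from 0 to 2682 and 1576.

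Members free of overlap between *Mtmr2* KO and WT control numbered 0 after correction for GC content, against 1, and 0 to 2 between niacin-treated and untreated *Mtmr2* KO with single libraries left out (*Cadm2* without 4506, as 5.51% of all genes lower, and *Nfasc* and *Cldn19* without 4502, as 14.2%). Relative to the myelin genes, *Mtmr2* KO and WT control were apart for 2 members without *Egr2* and *Mag*, where 19.5% of all genes were lower without overlap, and for 1 to 5 with single libraries left out (5 without 4501, where 21.9% of genes were lower, and 2 without 4497, where 24.6% were).

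Signs turned for log2 fold changes that were not called. For *Mtmr2* KO against WT control these were, without replicates 4502 and 4503, *Nfasc* 0.12, *Gldn* 0.10, *Cadm1* 0.13, *Cadm3* 0.12, *Cadm4* 0.23 and *Dlg1* 0.012; with limma-voom weights *Cadm1* 0.028 and *Cadm4* 0.067; for *Cldn19*, -0.047 without a filter and -0.0064 without replicates 4506 and 4507. With single libraries left out, these values ran from -0.34 to 0.029 for *Nfasc*, -0.077 to 0.16 for *Nrcam*, -0.24 to 0.018 for *Cadm1*, -0.31 to 0.10 for *Cadm4*, -0.15 to 0.19 for *Cldn19* and -0.069 to 0.024 for *Dlg1*. For niacin-treated *Mtmr2* KO against WT control, *Cadm2* turned to -0.15 after correction for GC content, -0.0062 with transcript length as well, -0.079 without replicates 4506 and 4507, and ran from -0.038 to 0.21 with single libraries left out. Among alternatives for single members' fold changes, 588 kept direction and side of the threshold, 35 passed the threshold and 25 turned sign. Low counts do not limit these members, whose lowest count was 619. No paired analysis was possible because replicate numbers are not shared between groups.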
